A study of Homo sapiens with 6 samples.

Results

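The genes described are beta-catenin (CTNNB1) and 9 genes known as transcriptional targets or feedback regulators of the Wnt pathway: AXIN2, LGR5, NKD1, RNF43, ZNRF3, TCF7, LEF1, DKK1 and SP5. They were picked by symbol, and all 10 were found among the 58174 genes of the expression table. To examine what FTO depletion does to gastric cancer cells, RNA was sequenced from 6 libraries of AGS, an established line of human gastric adenocarcinoma. There were 3 libraries of cells given a negative control siRNA (si-NC) and 3 of cells given siRNA against FTO (si-FTO). The sample labels also call the si-NC cells wild type and the si-FTO cells FTO-/-, whereas the titles name siRNA and the study's methods give an siRNA against FTO, so these sources differ on how FTO was depleted.

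In the canonical Wnt pathway, a complex built on Axin and APC phosphorylates beta-catenin and has it degraded. Wnt binding to Frizzled and LRP receptors stops this, and beta-catenin then enters the nucleus and activates genes together with DNA-binding factors of the TCF/LEF family. Many of the activated genes encode brakes on the pathway, so their mRNA is widely read as a sign of its activity. In the gut the pathway maintains stem cells, and AGS is known to carry an activating mutation in CTNNB1.

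Of the 10 genes, 6 were lower in si-FTO by at least 2-fold, 2 were higher and 2 differed less. AXIN2, LGR5, NKD1, RNF43, TCF7 and LEF1 were the lower genes, DKK1 and SP5 the higher, and CTNNB1 and ZNRF3 stayed within the limit. The values are TPM, a gene's share of all transcripts, corrected for transcript length and scaled to a total of 1000000, and they are given as 1 mean for each group. The spread between libraries is therefore unknown, no difference could be tested, and every statement below compares 2 group means. Differences are log2 ratios of si-FTO to si-NC after adding 1 to each mean, and a gene is called higher or lower when its ratio is at least 1 in size. Among all 20493 genes with a mean TPM of 0.5 or more in either group, 11.4% were called higher in si-FTO and 17% lower, and the median ratio was -0.20. Relative to that median, the 10 ratios ran from -3.28 for LGR5 to 4.14 for DKK1. Each of the 10 passed that minimum, LGR5, NKD1 and TCF7 only through si-NC and SP5 only through si-FTO. A gene that passes through 1 group only is more likely to be called, so the counts are descriptive.

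FTO itself, the depleted demethylase of N6-methyladenosine (m6A), had 33.1 TPM in control cells against 7.27 TPM after depletion, a ratio of -2.05. All genes together came to 999970 and 999957 TPM, and since TPM carries no read number, the depth behind each mean is unknown.

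Sequences upstream of the gene starts are shown for SP5 and DKK1, the higher genes, and for TCF7 and LEF1, the lower genes that encode TCF/LEF factors themselves. RefSeq promoter entries (GRCh38.p14) matched 6 of the 10 genes, with 8 starts in all; AXIN2, LGR5, NKD1 and ZNRF3 had no entry. Each line gives 250 bases before the start, 5′ to 3′ on the gene's own strand, and capitals mark forms of the TCF/LEF motif on either strand, namely CTTTGAA with its variant CTTTGAT and likewise CTTTGTA with its variant CTTTGTT. SP5 lies on the plus strand at chr2:170715087-170715336, DKK1 on the plus strand at chr10:52314031-52314280, the TCF7 start shown on the plus strand at chr5:134123368-134123617, and LEF1 on the minus strand at chr4:108166302-108166551.
SP5: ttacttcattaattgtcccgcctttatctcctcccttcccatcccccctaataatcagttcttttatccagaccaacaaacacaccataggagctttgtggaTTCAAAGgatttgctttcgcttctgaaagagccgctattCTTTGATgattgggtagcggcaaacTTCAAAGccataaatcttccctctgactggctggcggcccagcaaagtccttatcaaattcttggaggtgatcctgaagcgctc
DKK1: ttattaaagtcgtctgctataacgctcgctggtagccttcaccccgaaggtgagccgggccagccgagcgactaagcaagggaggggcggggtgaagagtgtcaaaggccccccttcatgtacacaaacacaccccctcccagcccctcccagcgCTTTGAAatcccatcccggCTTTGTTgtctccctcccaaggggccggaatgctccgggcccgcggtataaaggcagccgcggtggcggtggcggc
TCF7: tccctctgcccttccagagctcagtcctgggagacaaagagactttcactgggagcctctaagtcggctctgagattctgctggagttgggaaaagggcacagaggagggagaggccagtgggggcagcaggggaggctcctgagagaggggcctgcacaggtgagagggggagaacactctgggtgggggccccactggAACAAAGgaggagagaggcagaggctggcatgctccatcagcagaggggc
LEF1: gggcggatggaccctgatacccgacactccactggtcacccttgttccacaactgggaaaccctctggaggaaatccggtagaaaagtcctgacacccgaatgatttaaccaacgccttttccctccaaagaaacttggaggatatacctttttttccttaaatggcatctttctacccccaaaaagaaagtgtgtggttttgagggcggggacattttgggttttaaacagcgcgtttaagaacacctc

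SP5 had 3 matches, whose first bases lie 148, 109 and 84 bases before the start, and DKK1 had 2, at 95 and 76 bases before it. No match overlaps another. The TCF7 start shown had 1 match at 50 bases, and the other TCF7 start, LEF1, CTNNB1 and the starts of RNF43 had none in this window. Among 35116 promoter windows of the same length, 11.96% held at least 1 match, 1.21% at least 2 and 0.122% at least 3. The 2 genes that were higher in si-FTO were those with more than 1 match among the 6 genes with an entry. The lower genes AXIN2, LGR5 and NKD1 had no entry, and a link between matches and direction was not tested. A match of these letters is a description of the sequence, and binding was not measured.

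CTNNB1 encodes beta-catenin, which links cadherins to the cytoskeleton and carries the Wnt signal to the nucleus. It lies on chromosome 3 of GRCh37 (hg19, the build the authors used) from 41236232 to 41301587. Its mean was 320.7 TPM in si-NC against 197.5 TPM in si-FTO, a ratio of -0.70, which is -0.49 relative to the median of all genes compared. CTNNB1 was the most abundant of the 10 genes in both groups, above 98.0% of all genes compared in si-NC and above 96.4% in si-FTO. Its transcript was thus abundant on both sides and differed by 1.62-fold.

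LEF1 and TCF7 encode DNA-binding partners of beta-catenin and are themselves Wnt targets. LEF1 (chromosome 4, 108968701 to 109090112) had 28.4 TPM in si-NC against 4.18 TPM in si-FTO, a ratio of -2.51. TCF7 (chromosome 5, 133450372 to 133487556) had 8.92 TPM in si-NC against 0.368 TPM in si-FTO, a ratio of -2.86. SKP1, a ubiquitin ligase subunit annotated across part of TCF7 on the opposite strand, had 120.4 and 334.6 TPM, and whether the counting used strand is not given in the sources used here. The other factors of the family went apart. TCF7L1, mostly a repressor, had 11.9 TPM in si-NC against 0.627 TPM in si-FTO. TCF7L2, the main factor of the intestinal epithelium, had 10.8 and 15.3 TPM, a ratio of 0.47. The 4 factors together summed to 60.0 TPM in si-NC against 20.4 TPM in si-FTO. LEF1 was the largest part in si-NC with 47.3% of this sum, and TCF7L2 was the largest in si-FTO with 74.7%, compared with 17.95% in si-NC. On the level scale LEF1 stood 2.64 times above TCF7L2 in si-NC and at 0.273 times its level in si-FTO.

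AXIN2 and NKD1 are intracellular brakes, a scaffold of the destruction complex and a Dishevelled-binding antagonist. AXIN2 (chromosome 17, 63524681 to 63557766), the feedback copy of AXIN1, had 9.54 TPM in si-NC against 1.74 TPM in si-FTO, a ratio of -1.94. AXIN1, which is not known as a Wnt target, had 29.6 and 36.4 TPM, a ratio of 0.29. The summed level of both scaffolds was thus close, 39.2 and 38.1 TPM, with AXIN2 making up 24.4% in si-NC and 4.57% in si-FTO. NKD1 (chromosome 16, 50582307 to 50683160) had 4.06 TPM in si-NC against 0.403 TPM in si-FTO, a ratio of -1.85. Its relative NKD2 was the more abundant of the pair in both groups, with 25.4 and 16.7 TPM, a ratio of -0.58 that was not called.

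RNF43 and ZNRF3 are membrane E3 ubiquitin ligases that remove Frizzled receptors from the surface, and LGR5, a marker of gut stem cells, is a receptor for the R-spondins that block these ligases. RNF43 (chromosome 17, 56431037 to 56494956) had 10.5 TPM in si-NC against 1.43 TPM in si-FTO, a ratio of -2.24. ZNRF3 (chromosome 22, 29279560 to 29453476) had 14.9 and 8.12 TPM, a ratio of -0.80. The more abundant ligase in both groups was ZNRF3, at 1.42 times the level of RNF43 in si-NC and 5.68 times in si-FTO. LGR5 (chromosome 12, 71833578 to 71980090) had 10.3 TPM in si-NC against 0.0102 TPM in si-FTO, a ratio of -3.48, and ranked last of the 10 in si-FTO. LGR4, a related receptor of wider expression, had 12.3 TPM in si-NC against 33.6 TPM in si-FTO, a ratio of 1.37. LGR5 made up 45.4% of the summed level of LGR4, LGR5 and LGR6 in si-NC and 0.0298% in si-FTO, while the sum itself was 22.7 and 34.2 TPM. Each of the 4 R-spondin genes was below 0.5 TPM in control cells, and all 4 were listed at 0 after depletion.

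DKK1 and SP5 went the other way. DKK1 (chromosome 10, 54074041 to 54077802), a secreted inhibitor that binds LRP co-receptors, had 2.76 TPM in si-NC against 56.5 TPM in si-FTO. Its ratio of 3.93 stood above that of 98.7% of all genes compared, and it was the second most abundant of the 10 in si-FTO after CTNNB1. SP5 (chromosome 2, 171571847 to 171574588), a zinc finger factor induced by beta-catenin, had 0.349 TPM in si-NC against 1.81 TPM in si-FTO, a ratio of 1.06. With a pseudocount of 0.1 that ratio was 2.09, so its size rests on the pseudocount at this low level. The same holds for LGR5, TCF7 and NKD1, low in si-FTO, whose ratios were then -6.56, -4.27 and -3.05. An annotated gene on the opposite strand, ERICH2-DT, overlaps SP5 and had 0.466 TPM in si-NC and was listed at 0 in si-FTO. The related Wnt target SP8 had 5.46 TPM in si-NC and was listed at 0 in si-FTO.

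**Figure D1:**
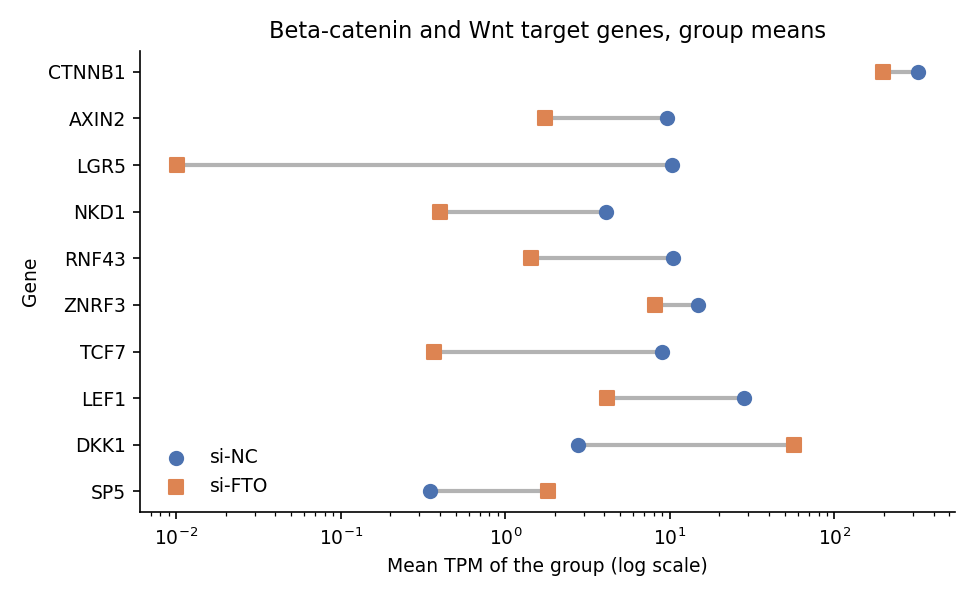
Mean TPM of the 10 genes (horizontal log axis) in si-NC (circles) and si-FTO (squares), with a grey line joining the 2 means of a gene and no error bars because 1 mean per group was deposited. LGR5 has the widest gap, from 10.3 to 0.0102 TPM, and DKK1 and SP5 are the genes whose square lies to the right.

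In order of level, si-NC ran CTNNB1, LEF1, ZNRF3, RNF43, LGR5, AXIN2, TCF7, NKD1, DKK1 and SP5, and si-FTO ran CTNNB1, DKK1, ZNRF3, LEF1, SP5, AXIN2, RNF43, NKD1, TCF7 and LGR5. Which neighbours in these orders differ beyond the spread of the libraries cannot be told from means. The median ratio of the 10 genes was -1.90, compared with -0.20 over all genes, and the 8 genes with a negative ratio lay between -3.48 and -0.70. Wnt targets that encode brakes were therefore found on both sides, AXIN2, NKD1 and RNF43 among the lower genes and DKK1 among the higher.

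**Figure D2:**
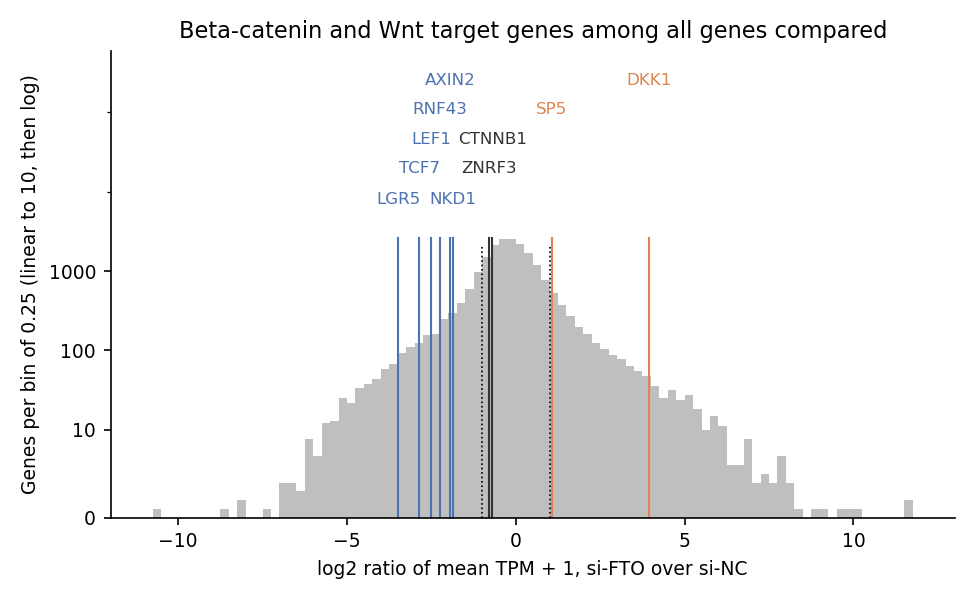
Number of genes per bin of 0.25 in log2 ratio (vertical axis linear up to 10, then log) for the 20493 genes compared, with lines at the 10 genes, blue where called lower, orange where called higher and black where not called, and dotted lines at -1 and 1. LGR5, TCF7 and LEF1 lie in the lower tail, DKK1 at 3.93 in the upper tail, and SP5 just past the dotted line.

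A relative also stood above a member among the catenins. JUP, gamma-catenin or plakoglobin, is the closest relative of beta-catenin and a part of desmosomes. It had 55.4 TPM in si-NC against 367.8 TPM in si-FTO, a ratio of 2.71. JUP stood at 0.173 times the level of CTNNB1 in si-NC and at 1.86 times in si-FTO. CTNNA1, the alpha-catenin that ties both to actin, had 117.3 and 298.8 TPM, a ratio of 1.34. The 3 cadherins of the adherens junction list were lower in si-FTO: CDH2 had 53.7 and 1.25 TPM (ratio -4.61), CDH1 3.67 and 0.685 TPM (ratio -1.47) and CDH3, just past the limit, 1.32 and 0.152 TPM (ratio -1.01). Of the 8 adherens junction genes listed, 6 were compared, 2 called higher and 3 lower (11.4% and 17% of all genes).

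**Figure D3:**
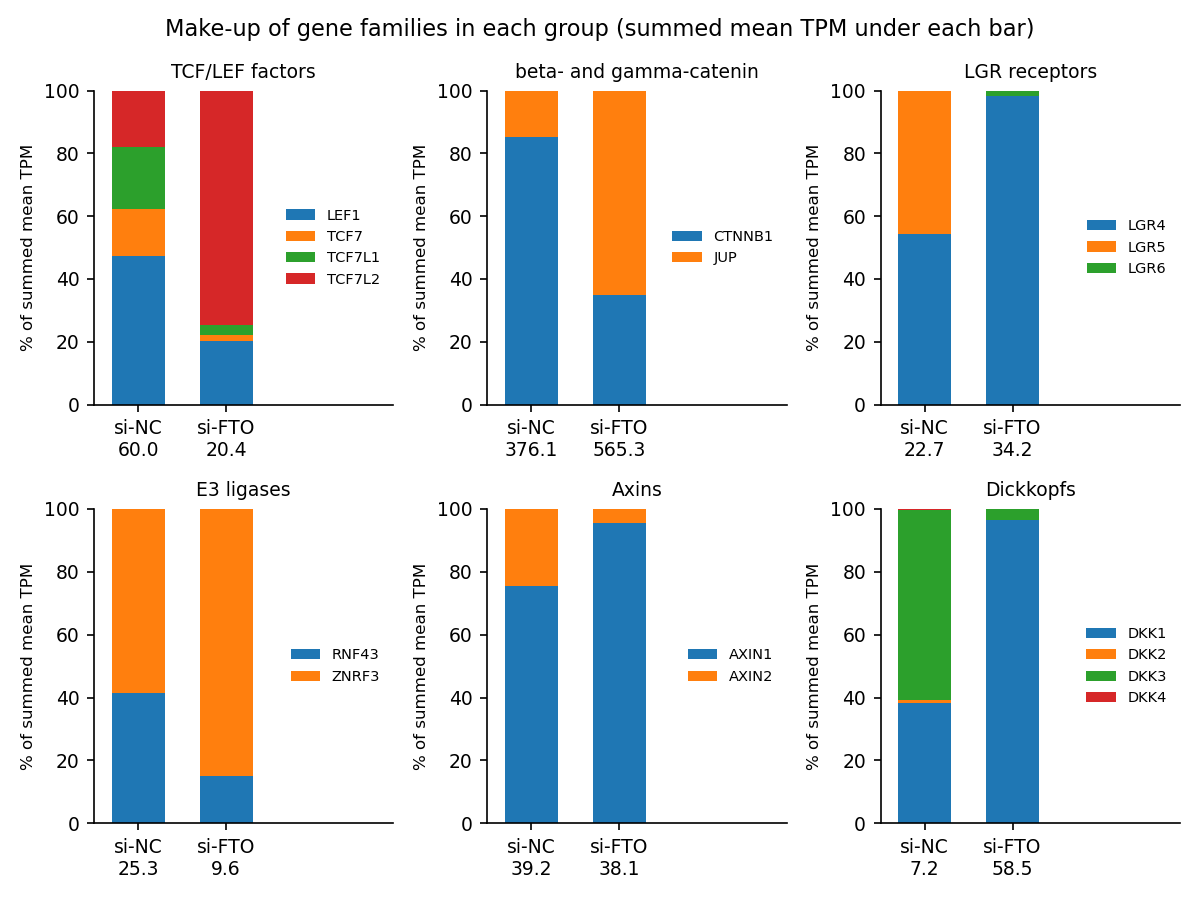
Share of the summed mean TPM (vertical axis, %) taken by each gene of 6 families in si-NC and si-FTO, with the summed TPM under each bar. TCF7L2 goes from 17.95% to 74.7% of the TCF/LEF factors, CTNNB1 from 85.3% to 34.9% of the pair with JUP, and DKK1 from 38.1% to 96.5% of the Dickkopfs.

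Beyond the 10 genes, 118 Wnt genes were listed by role in 9 lists, and 96 of them were compared. Of these, 16 were called higher (16.7%, against 11.4% of all genes) and 32 lower (33.3%, against 17%), and 22 of the 96 passed the minimum in 1 group only. Their median ratio was -0.24, close to the -0.20 of all genes. The lists differed in where the called genes lay, as the plot of ratios by role shows.

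Wnt ligands, the secreted signals, were compared for 14 of 19 genes, with 5 called higher and 4 lower (11.4% and 17% of all genes) and a median ratio of 0.74. That median was 0.19 over all 19 genes without the filter, 1.34 with a pseudocount of 0.1 and 2.16 with a minimum of 5 TPM, and 9 of the 14 passed in 1 group only. WNT5A, often a ligand of beta-catenin-independent signalling, had 9.01 TPM in si-NC against 43.7 TPM in si-FTO, a ratio of 2.16, and was the most abundant ligand in si-FTO. WNT6 went from 0.312 to 14.5 TPM (ratio 3.57), WNT7B from 0.175 to 10.4 TPM (ratio 3.28) and WNT9A from 0.729 to 8.04 TPM (ratio 2.39). WNT11 was the most abundant ligand in si-NC, with 16.4 TPM against 0.996 TPM in si-FTO (ratio -3.13). WNT5B went from 3.997 to 0.186 TPM (ratio -2.08), WNT8B from 1.80 to 0.0469 TPM (ratio -1.42) and WNT2B from 1.88 to 0.432 TPM (ratio -1.01). The summed ligand level was 48.6 TPM in si-NC against 115.1 TPM in si-FTO. The 2 genes of ligand secretion were not called, and WLS, the carrier of Wnts to the surface, had 76.5 and 78.4 TPM. Both groups thus held transcripts of several Wnts, with a different leading ligand in each.

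Receptors were compared for 16 of 16 genes, with 1 called higher and 6 lower (11.4% and 17% of all genes) and a median ratio of -0.00151. ROR2, a receptor for WNT5A, had 8.82 TPM in si-NC against 40.2 TPM in si-FTO (ratio 2.07). PTK7, a pseudokinase co-receptor, went from 48.2 to 0.900 TPM (ratio -4.69) and FZD8 from 16.3 to 0.577 TPM (ratio -3.45). FZD7 and FZD9 had ratios of -1.89 and -1.51. LRP5, the most abundant receptor gene of the list on average, had 36.9 and 73.0 TPM, a ratio of 0.97 just under the limit. In the R-spondin list, 2 of 6 genes were compared, and LGR4, described above, was the one called.

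Secreted inhibitors and the Dickkopf receptors KREMEN1 and KREMEN2, listed together, were compared for 8 of 14 genes, with 1 called higher and 5 lower (11.4% and 17% of all genes) and a median ratio of -1.85. Of the 5, 4 passed the minimum only through si-NC, and the median was -0.30 over all 14 genes without the filter. SFRP1, a decoy that binds Wnts, had 14.7 TPM in si-NC and was listed at 0 in si-FTO, and SOSTDC1, an inhibitor of Wnt and BMP signals, had 5.36 TPM and was also listed at 0. SFRP2 went from 11.3 to 0.0755 TPM (ratio -3.51) and KREMEN1 from 29.6 to 4.88 TPM (ratio -2.38). The higher gene was NOTUM, a Wnt deacylase and Wnt target, with 0.766 and 4.78 TPM (ratio 1.71). The 14 genes of this list, which does not include DKK1, summed to 72.6 TPM in si-NC, led by KREMEN1, and to 15.4 TPM in si-FTO, again led by KREMEN1, below the 56.5 TPM of DKK1 there.

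Of 16 genes of the destruction complex and its regulators, 2 were called lower and 0 higher, beside 17% and 11.4% of all genes, with a median ratio of -0.12. CSNK1E, a kinase that acts on Dishevelled, had 633.5 TPM in si-NC against 188.1 TPM in si-FTO (ratio -1.75), and BTRC, the ubiquitin ligase subunit that recognizes phosphorylated beta-catenin, 24.4 and 9.73 TPM (ratio -1.24). APC had 7.13 and 8.55 TPM and GSK3B 24.5 and 25.6 TPM, neither called. A readthrough gene, TPTEP2-CSNK1E, shares the strand and exons of CSNK1E and had 1.16 and 0.666 TPM, so reads could be split between them.

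Of 15 other nuclear factors, 3 were called higher and 3 lower, beside 11.4% and 17% of all genes, with a median ratio of -0.26. TLE4, a co-repressor of TCF factors, had 106.0 TPM in si-NC against 2.79 TPM in si-FTO (ratio -4.82), TCF7L1, given above, had a ratio of -2.99, and CTNNBIP1, an inhibitor of the contact between beta-catenin and TCF, one of -1.08. BCL9L, a co-activator of beta-catenin, had 9.38 and 53.7 TPM (ratio 2.40). TLE5, a short TLE protein, had 167.2 and 438.3 TPM (ratio 1.39), and TLE2 11.1 and 27.5 TPM (ratio 1.23). TLE genes were thus called on both sides.

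Other genes known as beta-catenin targets in some tissue were compared for 17 of 22, with 3 called higher and 9 lower (11.4% and 17% of all genes) and a median ratio of -1.49. Of the 17, 7 passed the minimum in 1 group only. That median was -0.59 over all 22 genes without the filter and -0.62 with a minimum of 5 TPM. ID2, an inhibitor of helix-loop-helix factors, had 174.8 TPM in si-NC against 0.584 TPM in si-FTO (ratio -6.79). TNFRSF19 went from 6.91 to 0.103 TPM (ratio -2.84) and SOX9, a factor of gut progenitor cells, from 4.64 to 0.0769 TPM (ratio -2.39). CD44, a hyaluronan receptor, went the other way, from 2.22 to 94.5 TPM (ratio 4.89), and MMP7, a metalloproteinase, was listed at 0 in si-NC and had 2.905 TPM in si-FTO. CCND1, the gene of cyclin D1, had 56.6 and 80.3 TPM, a ratio of 0.50 that was not called. Of the intestinal targets, ASCL2 and CDX1 were listed at 0 in both groups.

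**Figure D4:**
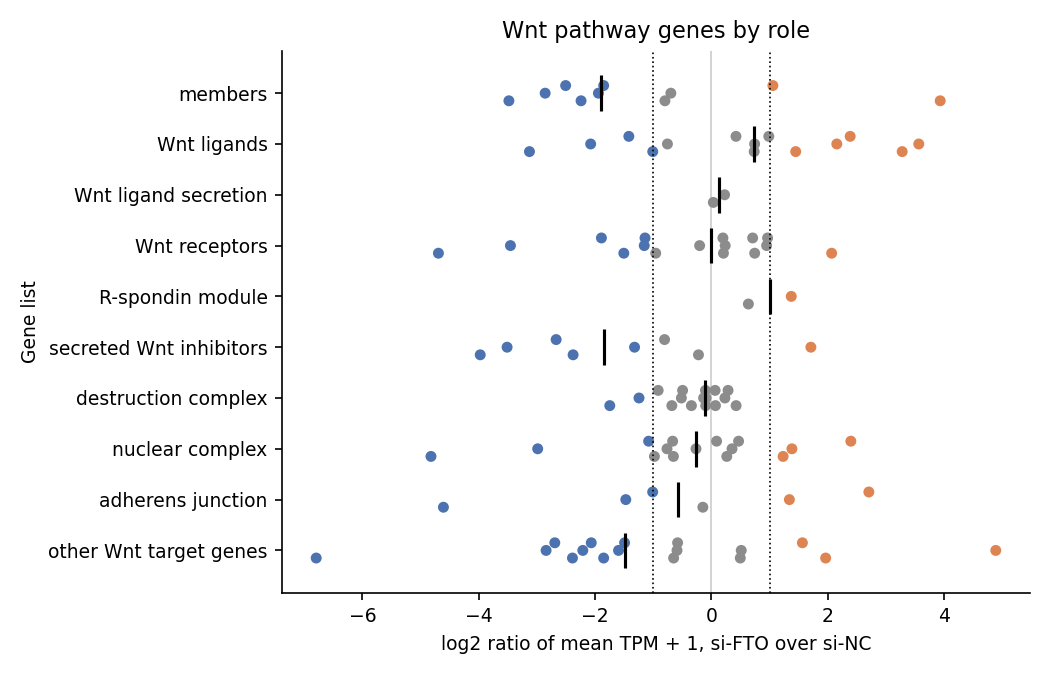
Log2 ratio of mean TPM plus 1 (horizontal axis) for each compared gene of 10 lists, orange where called higher, blue where called lower and grey where not called, with a black bar at the median of each list, dotted lines at -1 and 1, and small vertical offsets only to separate points. Of the 16 destruction complex genes, 14 lie between the dotted lines and 2 to their left, whereas the 10 genes (members) have a median of -1.90.

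The labelled cell type was checked against 12 markers of gastrointestinal epithelium, of which 8 were compared, 6 called higher and 1 lower (11.4% and 17% of all genes), and 4 of the 8 passed in 1 group only. In all, 5 had at least 1 TPM in si-NC and 6 in si-FTO. KRT8 and KRT18, keratins of simple epithelia, had 10.8 and 52.1 TPM in si-NC and 3139 and 1851 TPM in si-FTO, and ELF3, an epithelial transcription factor, had 0.115 and 93.3 TPM. The claudins of tight junctions were called higher as well, CLDN7 with 1.17 and 14.8 TPM, CLDN3 with 0.165 and 2.95 TPM and CLDN4 with 0.226 and 2.70 TPM. The summed level of the list was 69.5 TPM in si-NC, led by KRT18, and 5105 TPM in si-FTO, led by KRT8. Among the defining genes, EPCAM had 1.22 and 0.113 TPM, KRT19 was listed at 0 in si-NC and had 0.130 TPM in si-FTO, and ESRP1, GRHL2 and CDH17 had 0.0830, 0.00370 and 0.00634 TPM in control cells and were listed at 0 after depletion. Several markers of the labelled tissue were thus at or near 0 in both groups.

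Most listed genes of neural-type cells were lower in si-FTO. Of 7 listed, 6 were compared, 0 were called higher and 5 lower (11.4% and 17% of all genes), and these 5 passed the minimum only through si-NC. The summed level of the list was 438.3 TPM in si-NC, led by UCHL1, and 5.98 TPM in si-FTO, led by TUBB3. UCHL1, a ubiquitin hydrolase abundant in neurons, had 302.9 and 0.0204 TPM. NEFL and NEFM, the light and medium neurofilament subunits, had 62.7 and 49.9 TPM in si-NC and were listed at 0 in si-FTO, and STMN2 was listed at 0 in both. The part of the epithelial and neural-type differences in the values of the Wnt genes was not tested. In bulk RNA, fewer cells that express a gene and less of its RNA per cell cannot be told apart.

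**Figure D5:**
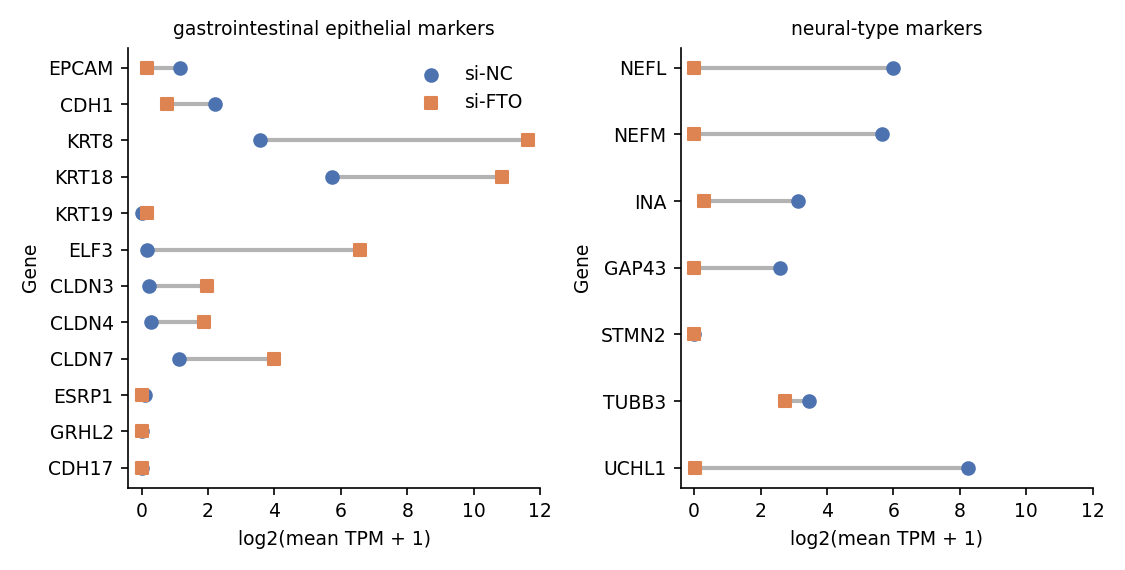
Levels as log2 of mean TPM plus 1 (horizontal axis) of 12 gastrointestinal epithelial markers (left) and 7 neural-type markers (right) in si-NC (circles) and si-FTO (squares). KRT8, KRT18 and ELF3 lie far to the right in si-FTO, and UCHL1, NEFL and NEFM in si-NC, whereas KRT19, ESRP1, GRHL2 and CDH17 are near 0 in both.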

How the data were processed

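AGS cells with si-NC or si-FTO were sequenced as 3 libraries per group. Per the study's methods, alignment to hg19 used Bowtie and expression came from RSEM, whereas the submitters' processing notes name HISAT2; versions and annotation are not given in the sources used here. For 58174 genes the authors gave TPM, averaged over the libraries of a group. Their own fold changes, p-values and q-values, and a second table of the genes that passed them, were not used. A value of exactly 0.0001 was read as 0. Because expression levels were given only as group means, the planned limma fit on libraries was replaced by the log2 ratio of means with a pseudocount of 1, over genes at 0.5 TPM or more in either group, called at a ratio of 1 or more in size, with no test.

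Symbols came from the reference's gene name table, which matched 55726 identifiers, gene positions from GENCODE lifted to GRCh37, and upstream sequences from RefSeq. Promoter coordinates (GRCh38.p14) and gene coordinates (GRCh37) are separate systems. The genes and lists were chosen with earlier results of these data known. All 10 genes and FTO were named, and of each other list the called genes, at most the 4 with the largest ratio per direction, and the most abundant; a gene covered by this rule is not reported here, and genes named beyond it (among them AXIN1, NKD2, TCF7L2, APC, GSK3B, CCND1, ASCL2, CDX1, FZD2, FZD6, SKP1 and the R-spondins) were chosen after their values were seen. Python 3.11.15, numpy 2.4.6 and pandas 2.3.3 were used. The calling code was run on simulated group means with changes set beyond the limit in well expressed genes. That run checked the code only, and cannot speak for genes of low level or for the spread between these libraries. Alternatives were another pseudocount, other filters and limits, and 2 scalings of the groups.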

Additional observations from a re-analysis of the deposited data

How the results depend on the processing

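The missing spread between libraries and the unknown depth limit every value. No paired analysis was possible because libraries are averaged within each group, and for the same reason neither leaving out each replicate nor the replicate block was run. Each of the 10 genes kept the sign of its ratio under the alternatives run for it. Over the alternatives the ratios ranged from -0.75 to -0.53 for CTNNB1, from -9.98 to -3.39 for LGR5, from 3.93 to 4.36 for DKK1 and from 1.06 to 2.37 for SP5. Those of TCF7 ranged from -4.60 to -2.67 and those of NKD1 from -3.33 to -1.59. Median-ratio scaling removed a shift of -0.17 between the groups, and under it and quantile normalization 6 of the 10 genes were called lower and 2 higher. Over all genes the calls were more even, 2684 higher and 3002 lower with median-ratio scaling and 2803 and 2902 with quantile normalization, against 2340 and 3492 as deposited.

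With a minimum of 5 TPM, which leaves out NKD1 and SP5, fewer genes entered, 12967 in all and 74 other Wnt genes. Then 1 of the 10 genes was higher, 2254 of all genes were lower (17.4%) and 21 other Wnt genes were lower (28.4%). With a limit of 2 on the log2 ratio, 1 of the 10 genes was higher, and 976 of all genes were higher and 1241 lower, with 8 other Wnt genes higher and 17 lower, and AXIN2, NKD1 and SP5 lost their call to the stricter limit. With a limit of 1.5-fold, 3855 of all genes were higher and 6397 lower, and CTNNB1 and ZNRF3 were then called lower. Without the filter, 58174 genes and 118 other Wnt genes were compared. With 0.0001 kept as a value and neither pseudocount nor filter, 7501 of these genes were higher (12.9%) and 12118 lower (20.8%). Of the other Wnt genes, 53 were lower there (44.9%). This setting alters 3 choices together, whereas leaving out the filter alone gave 2340, 3492 and 32, and a pseudocount of 0.1 alone 3280, 5147 and 37. The median of the R-spondin list, over 2 genes in the main setting, turned from 1.01 to -0.0216 without a filter, since the 4 R-spondin genes then entered. It was -7.23 with 0.0001 kept, where the pseudocount was also left out. There the 4 R-spondin genes, listed at 0 in si-FTO, enter as 0.0001 over their si-NC means, so the value reflects that placeholder.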

Other observations

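Frizzled receptors were expressed in both groups with a different leading gene. Their 10 genes summed to 111.5 TPM in si-NC against 91.4 TPM in si-FTO. FZD7 was the most abundant in si-NC, with 19.3% of the sum and 21.5 TPM, and FZD2 in si-FTO, with 33.7% and 30.8 TPM. FZD6 had 11.3 TPM in si-NC against 22.7 TPM in si-FTO.

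Markers of other cell types gave mixed values. Of 8 mesenchymal markers, 7 were compared, with 2 called higher and 2 lower (11.4% and 17% of all genes). PDGFRB and COL1A1 had ratios of 2.21 and 1.73, and COL3A1 and PDGFRA, the latter listed at 0 in si-FTO, were the lower genes, with 2.18 and 1.03 TPM in si-NC. VIM, the gene of vimentin and the most abundant of the list in both groups, had 439.9 TPM in si-NC against 752.0 TPM in si-FTO. Of the 5 endothelial markers, 4 were found and 1 was compared: CDH5, the gene of VE-cadherin, which also binds beta-catenin, had 0.00827 TPM in si-NC against 40.9 TPM in si-FTO, while VWF had 0.00493 and 0.0537 TPM and TEK 0.00593 and 0.0147 TPM. KDR went the other way, from 0.401 TPM in si-NC, above the other 3, to a listing at 0 in si-FTO. PTPRC, a general leukocyte marker, was listed at 0 in both groups.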
